A study of Homo sapiens with 12 samples.

Results

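This account follows 44 genes that encode ribosome biogenesis and nucleolar factors through treatment of cancer cells with squamocin. The genes were given as a list of names and matched on the gene name in the expression table of each cell line, where all 44 were found among the 29657 genes listed for SCC15 and the 31055 listed for SCC25 (34227 in either table). The RNA came from SCC15 and SCC25 cells, established lines of head and neck squamous cell carcinoma (HNSCC) that the labels give as wild type, after 24 h with squamocin at 10 µg/mL or with the solvent DMSO. Squamocin is an annonaceous acetogenin, a plant compound class known to inhibit mitochondrial Complex I, and the labels call the treatment ACGs. Each cell line and treatment had 3 libraries, 12 in all, and nothing in the labels says that these came from separate cultures, so that p-values measure the spread between libraries, which may be technical. Each cell line is a single model, with no other agent or genotype beside it.

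Ribosomes are assembled from the nucleolus outwards. RNA polymerase I transcribes a long precursor RNA, on which the small-subunit processome forms, small nucleolar RNAs (snoRNAs) held by box C/D and box H/ACA proteins guide ribose methylation and pseudouridylation, and separate sets of assembly factors carry the small and the large subunit to the cytoplasm. The MYC transcription factor is a textbook activator of these genes in growing cells, and the sequence CACGTG, called the E-box, is the canonical site bound by MYC with its partner MAX. The study asked how squamocin acts on MYC in HNSCC.

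The letters CACGTG stood in the promoters of many of these genes. Promoters of 36 of the 44 genes, from 250 bases before to 50 bases after the RefSeq start site on GRCh38.p14, were searched on both strands (the motif is its own reverse complement). An E-box was present in 16 of 36 (44.4%), against 8.78% of the 27303 genes with a promoter in the same table. CCGGAAG, the core letters bound by ETS factors, was present in 14 of 36 (38.9%), against 12.2% of all genes, and TATAAA in 2 of 36 (5.56%), against 14.0%. A motif of 10 letters bound by the factor NRF1 was present in 3 of 36 (8.33%), against 1.52%. The genes set beside these were all those with a promoter, expressed or not, and promoters of like base composition were not compared. The 17 E-boxes in these 16 promoters began between 170 bases before and 36 bases after the start site, and 16 of the 17 began within 40 bases of it. These motifs do not overlap in their letters, and a match describes the sequence and not binding. The following 6 windows of 100 bases, 80 before the start site and 20 after it, are shown because they span the responses described below, with the E-box in capitals. NOP10 (chr15:34343117-34343216 (- strand)) and GNL3 (chr3:52685952-52686051 (+ strand)) rose in both cell lines by the authors' scaling, FBL (chr19:39846360-39846459 (- strand)) and RRP9 (chr3:51941885-51941984 (- strand)) rose in SCC15 and fell in SCC25, UTP4 (chr16:69132569-69132668 (+ strand)) fell in both, and NAT10 (chr11:34105549-34105648 (+ strand)) fell in SCC25 and did not pass the test in SCC15.
NOP10: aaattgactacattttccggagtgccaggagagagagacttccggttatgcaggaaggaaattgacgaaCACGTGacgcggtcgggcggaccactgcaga
GNL3: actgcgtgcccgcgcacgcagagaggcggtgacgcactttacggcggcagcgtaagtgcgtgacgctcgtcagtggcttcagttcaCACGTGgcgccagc
FBL: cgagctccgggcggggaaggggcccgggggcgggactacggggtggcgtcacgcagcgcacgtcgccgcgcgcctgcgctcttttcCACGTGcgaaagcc
RRP9: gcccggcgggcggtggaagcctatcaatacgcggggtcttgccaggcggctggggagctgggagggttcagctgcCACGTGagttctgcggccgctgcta
UTP4: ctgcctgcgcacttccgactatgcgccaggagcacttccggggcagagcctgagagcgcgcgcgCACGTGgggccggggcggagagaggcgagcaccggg
NAT10: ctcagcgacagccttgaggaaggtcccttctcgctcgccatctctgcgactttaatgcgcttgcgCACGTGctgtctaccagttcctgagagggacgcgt
Each window holds 1 copy of the same 6 letters within 20 bases of the start site, in genes chosen to differ in the direction of their RNA.

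Values below are normalized counts: the reads of a gene over the size factor that the authors had set for that library, separately in the 2 cell lines. The reads behind them numbered 16665563 to 22748845 per library. Replicate libraries of a group differed in their counts by a chi-square per degree of freedom of 1.72 to 11.0, except the third squamocin library of SCC15 (replicate 3), which stood at 71.6 and 63.6 from the other two, so that results in SCC15 are also given without it. Squamous epithelial markers had a mean of at least 10 normalized counts with DMSO for 9 of 9 genes in SCC25 and 7 of 9 in SCC15. In SCC15 KRT17 made up most of the sum, and some others were low, with means of 9.50 for KRT5, 17.5 for TP63, 11.4 for EPCAM and 1.44 for DSG3. The list also holds KRT14, KRT6A, CDH1 and SFN, which are not given singly. The summed level of the markers was 113058 to 119312 with DMSO and 208842 to 362931 with squamocin in SCC15, and 30499 to 30748 and 55118 to 57846 in SCC25. Lists of other cell types also moved with treatment. In SCC25 the fibroblast list went from 766–809.6 with DMSO to 1073–1228 with squamocin, the leukocyte list from 374–459.6 to 75–96.6 (CD14 from a mean of 351 to 4.81) and the endothelial list from 233–296 to 19.8–37.7. In SCC15 they went from 708–784 to 482–486, from 502–547 to 322–506 and from 158–178 to 66.1–77.1, with COL3A1 (445), CD14 (504) and PECAM1 (166) the highest genes with DMSO. Of these lists, 1 leukocyte marker in each line, 2 endothelial markers in SCC15 and, with squamocin, 1 fibroblast marker in SCC25 were not listed or at 0. The samples were cultures of established cancer lines, so these lists are not read as numbers of fibroblasts, leukocytes or endothelial cells. The part of these differences in the results was not tested. Bulk RNA cannot tell fewer cells with a transcript from less of it per cell.

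Squamocin lowered most of the ribosome biogenesis genes in SCC25, while in SCC15 falls and rises were almost equal in number by the authors' scaling. Change is given throughout as the log2 fold change of squamocin against DMSO on log2(normalized count + 1), with its standard error and the limma p-value adjusted over all genes tested (15902 in SCC15, 16539 in SCC25), and a gene is said to rise or fall where the adjusted p was under 0.05. All 44 genes passed the filter, a mean of at least 10 normalized counts, in both lines. In SCC25, 31 genes fell (70.5% of the 44, against 38.5% of all genes tested), 10 rose (22.7%, against 38.3%) and 3 did not pass the test. In SCC15, 13 fell (29.5%, against 30.0% of all genes), 11 rose (25.0%, against 30.9%) and 20 did not pass, shares close to those of all genes. The median change of the 44 was -0.53 in SCC25, where that of all genes was -0.015, and -0.0070 in SCC15, where that of all genes was 0.012. In SCC25, 13 of the falls and 0 of the rises exceeded 1 on the log2 scale, and in SCC15 2 falls and 3 rises did. The share of all genes beyond 1 was not counted, so these numbers describe sizes and show no excess over other genes.

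The counts in SCC15 were much the same without the third squamocin library. Without it, 15 genes fell in SCC15 (34.1%, against 37.6% of all genes) and 14 rose (31.8%, against 38.0%), and these hold all 13 and all 11 of the genes called with it. The median change per library, each against the DMSO mean, was 0.0050, -0.071 and 0.11 for the 3 squamocin libraries of SCC15 and -0.55, -0.54 and -0.52 for those of SCC25.

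The scaling of the libraries bears on the direction in SCC15. When each library was scaled to an equal total in place of the authors' size factors, the change of the median gene moved by -0.51 in SCC15 and by -0.21 in SCC25. By that scaling 30 of the 44 genes fell in SCC15 (68.2%, against 51.1% of all genes) and 7 rose (15.9%, against 14.6%), with a median of -0.50 beside -0.49 over all genes. In SCC25, 34 fell (77.3%, against 47.6%) and 6 rose (13.6%, against 30.3%), with a median of -0.74 beside -0.23. Relative to the median gene, the 44 were near it in SCC15 and below it in SCC25. A change of scaling moves all genes of a library together, so this comparison could hardly differ between the scalings.

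**Figure D1:**
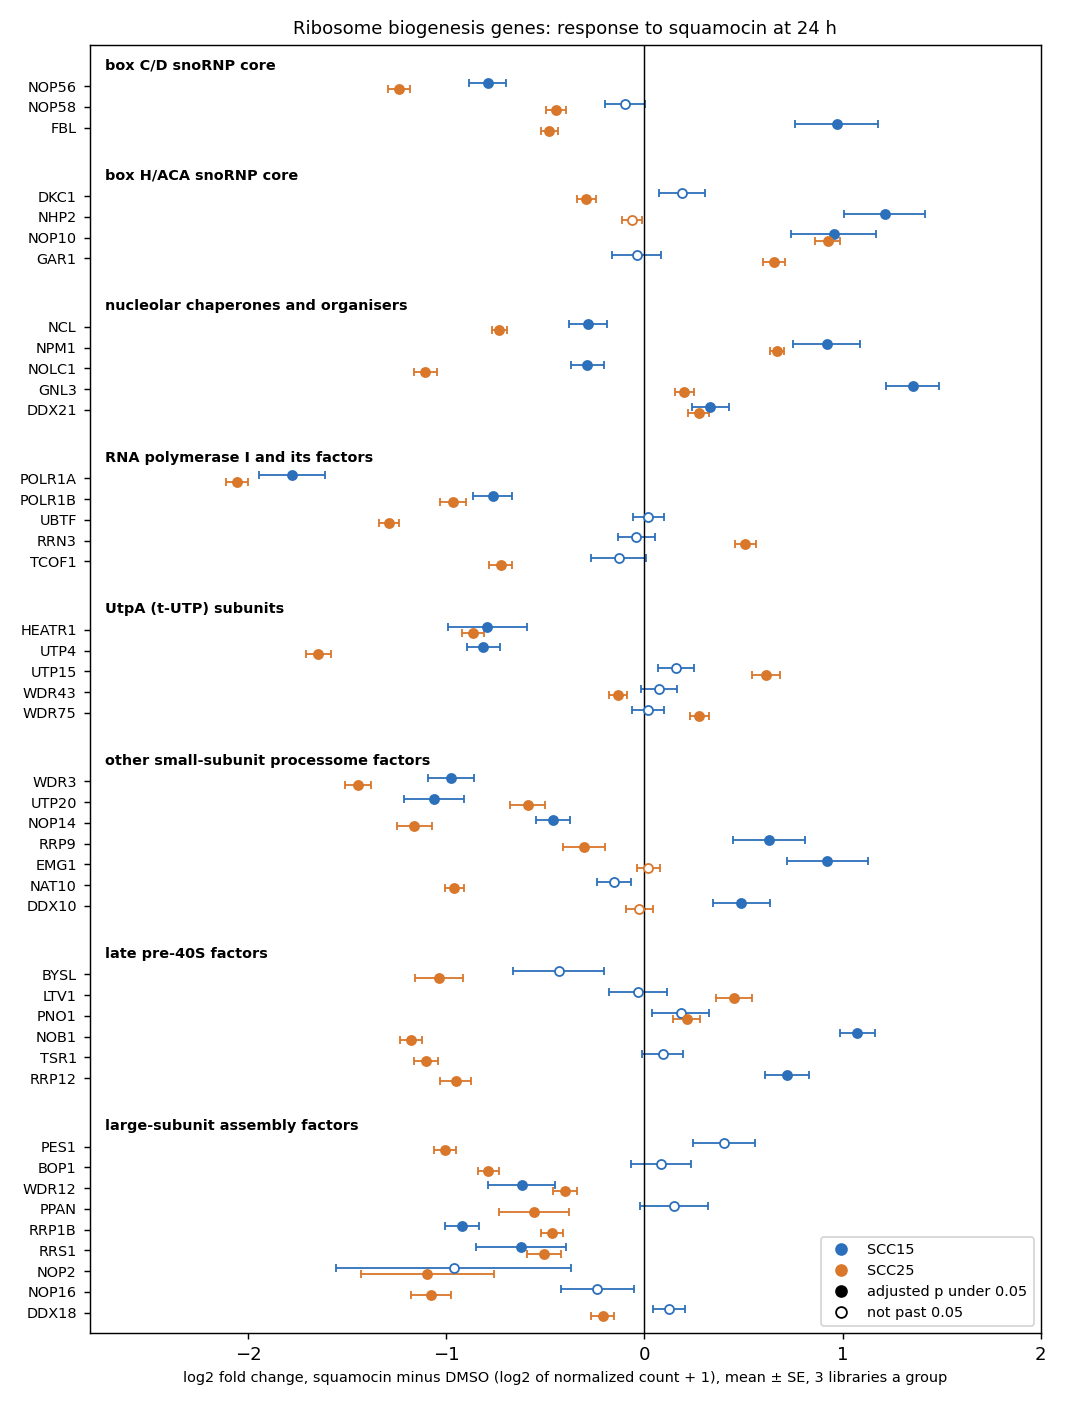
Log2 fold change of squamocin against DMSO (x axis, mean with its standard error, 3 libraries a group) for the 44 genes in rows grouped by role, SCC15 in blue and SCC25 in orange, with filled points for an adjusted p under 0.05. Most orange points lie left of 0 (31 falls), the blue points lie on both sides (13 falls, 11 rises), and POLR1A is the leftmost gene in both lines.

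The box C/D core proteins all fell in SCC25 (38.5% of all genes tested fell there), and FBL rose in SCC15. FBL (fibrillarin), the methyltransferase of the box C/D particles, measured 1785, 1767 and 1705 normalized counts in the 3 DMSO libraries of SCC15 and 2725, 3000.2 and 4948 in the 3 squamocin libraries. Every treated SCC15 library lay above every control, the third by the most, and the log2 fold change was 0.97 (SE 0.21, adjusted p = 0.00538), or 0.71 without that library. In SCC25, FBL measured 3997, 3907 and 4014 with DMSO and 2869, 2729.7 and 2945 with squamocin, with no overlap and a log2 fold change of -0.48 (SE 0.043, adjusted p = 4.03e-07). NOP56, a scaffold protein of the same particles, measured 2732, 2872 and 2835 with DMSO and 1494, 1609.5 and 1783 with squamocin in SCC15, and 2767, 2773 and 2843 and 1196, 1266 and 1092 in SCC25. It fell in both lines without overlap, with log2 fold changes of -0.79 (SE 0.092, adjusted p = 0.000343) and -1.24 (SE 0.056, adjusted p = 6.62e-10). NOP58, the paired scaffold, changed by -0.10 (SE 0.10, adjusted p = 0.429) in SCC15, where the groups overlapped, and fell in SCC25 with a log2 fold change of -0.44 (SE 0.050, adjusted p = 3.58e-06).

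Among the box H/ACA proteins, which hold the pseudouridine guides and also the telomerase RNA, the small partners of the synthase were the genes that rose. NOP10 measured 824, 817 and 787 with DMSO and 1324, 1271 and 2293 with squamocin in SCC15, and 655, 613 and 618 and 1148, 1149 and 1290 in SCC25. It rose without overlap in both lines, by 0.95 (SE 0.21, adjusted p = 0.00651) and 0.93 (SE 0.063, adjusted p = 3.17e-08), and in SCC25 this was the largest rise among the 44. NHP2 measured 730.3, 783 and 663 with DMSO and 1344, 1483 and 2370.3 with squamocin in SCC15, a rise of 1.21 (SE 0.21, adjusted p = 0.00181). In SCC25 it measured 1100.1, 1107 and 1054 and 1049.8, 1019 and 1052, a change of -0.063 (SE 0.051, adjusted p = 0.271). The third SCC15 library was the highest for both genes, and without it the rises were 0.68 for NOP10 and 0.96 for NHP2. GAR1 changed by -0.040 (SE 0.12, adjusted p = 0.8) in SCC15 and rose by 0.65 (SE 0.058, adjusted p = 3.7e-07) in SCC25. DKC1 (dyskerin), the synthase itself, changed by 0.19 (SE 0.12, adjusted p = 0.193) in SCC15 and fell in SCC25 with -0.29 (SE 0.048, adjusted p = 0.000105), so the catalytic subunit and its partners did not move together in SCC25.

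The abundant nucleolar chaperones and organisers split in the same way in both lines by the authors' scaling, with NPM1, GNL3 and DDX21 higher and NCL and NOLC1 lower. Per kilobase of exon, NPM1 was the most abundant of the 44 transcripts with DMSO in both lines (977 and 2065 normalized counts per kb). NPM1 (nucleophosmin), a histone and ribosomal protein chaperone, rose from 8123 ± 189.7 (SD, n = 3) to 15682 ± 3946 normalized counts in SCC15 and from 17159 ± 331 to 27293 ± 855 in SCC25, log2 fold changes of 0.92 (SE 0.17, adjusted p = 0.00261) and 0.67 (SE 0.038, adjusted p = 5.22e-09). NCL (nucleolin), which binds the precursor RNA, fell from 7182 ± 161 to 5917 ± 542 in SCC15 (-0.28 (SE 0.10, adjusted p = 0.0363)) and from 11459 ± 138 to 6896 ± 238 in SCC25 (-0.73 (SE 0.038, adjusted p = 2.64e-09)). The pair thus moved apart in both lines.

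GNL3 (nucleostemin), a nucleolar GTPase of growing cells, showed the largest rise among the 44 in SCC15. It measured 1304, 1563 and 1461 with DMSO and 3341, 3382 and 4403 with squamocin there, a rise without overlap of 1.35 (SE 0.13, adjusted p = 0.000165), or 1.22 without the third treated library. In SCC25 it measured 1178, 1215 and 1200.3 and 1418, 1334 and 1381, a small rise of 0.20 (SE 0.049, adjusted p = 0.00228) that turned to -0.0065 with equal library totals. NOLC1, a chaperone of snoRNA particles, measured 1488, 1475 and 1613 with DMSO and 1213, 1222 and 1311 with squamocin in SCC15, and 4789, 4882 and 4788 and 2280.2, 2427 and 2028 in SCC25. It fell without overlap in both, with log2 fold changes of -0.29 (SE 0.083, adjusted p = 0.0186) and -1.11 (SE 0.058, adjusted p = 2.72e-09), and the gap between treated and control libraries was far wider in SCC25. DDX21, an RNA helicase that links RNA polymerase I transcription to processing, rose by 0.33 (SE 0.092, adjusted p = 0.0156) in SCC15, which became -0.16 with equal library totals, and by 0.27 (SE 0.052, adjusted p = 0.000393) in SCC25, which became 0.065 (adjusted p = 0.242). The SCC15 calls of this group were narrow: NCL lost its call when any 1 of the 5 libraries other than the third squamocin library was left out (adjusted p 0.0989 to 0.129), NOLC1 without squamocin replicate 2 or any 1 of the DMSO libraries (0.0536 to 0.0982), and DDX21 without squamocin replicate 2 or DMSO replicate 1 or 3 (0.0543 to 0.071).

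Both catalytic subunits of RNA polymerase I fell in both lines, POLR1A by the most among the 44. POLR1A (ENSG00000068654, chr2:86020216-86106155 in GRCh38), the largest subunit, measured 995, 1024 and 948 normalized counts with DMSO and 350.1, 307 and 221 with squamocin in SCC15. In SCC25 it measured 1875, 1901 and 1823 and 452, 461 and 432. Each treated library held less than any control library of its line by a wide margin, with log2 fold changes of -1.78 (SE 0.17, adjusted p = 0.000134) and -2.06 (SE 0.054, adjusted p = 5.92e-12). Of all genes tested, 5.24% in SCC15 and 4.78% in SCC25 had a lower log2 fold change. POLR1B, the other catalytic subunit, fell with -0.77 (SE 0.10, adjusted p = 0.00054) and -0.97 (SE 0.065, adjusted p = 2.86e-08). UBTF, which binds the ribosomal RNA gene promoter, stayed between 1437 and 1584 in all 6 SCC15 libraries (0.020 (SE 0.079, adjusted p = 0.845)) and fell from 1770 ± 49.4 to 723 ± 14.8 in SCC25 (-1.29 (SE 0.050, adjusted p = 1.95e-10)). TCOF1 (treacle), a nucleolar partner of UBTF, changed by -0.13 (SE 0.14, adjusted p = 0.443) in SCC15 and fell in SCC25 with -0.72 (SE 0.057, adjusted p = 1.36e-07). RRN3, the factor that brings the polymerase to the promoter, went the other way from the subunits in SCC25, with a rise of 0.51 (SE 0.055, adjusted p = 2.37e-06), and changed by -0.040 (SE 0.091, adjusted p = 0.722) in SCC15. With equal library totals UBTF (-0.48), TCOF1 (-0.63) and RRN3 (-0.54) fell in SCC15, where 51.1% of all genes fell. RRN3 and NPM1 have pseudogene copies among which reads can be split.

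Genes of the UtpA proteins, which bind the 5′ end of the precursor RNA first, moved in both directions in SCC25, while only falls passed the test in SCC15. UTP4 measured 2326, 2400.4 and 2221 with DMSO and 1389.9, 1326 and 1242 with squamocin in SCC15, and 1498, 1374 and 1367 and 464, 425 and 464 in SCC25. It fell without overlap in both, with log2 fold changes of -0.81 (SE 0.084, adjusted p = 0.000208) and -1.64 (SE 0.063, adjusted p = 1.66e-10). HEATR1, the largest protein of the complex, fell in SCC15 with -0.79 (SE 0.20, adjusted p = 0.0106), or -0.54 without the third treated library, and in SCC25 with -0.86 (SE 0.058, adjusted p = 2.64e-08). UTP15 rose by 0.61 (SE 0.069, adjusted p = 3.89e-06) and WDR75 by 0.28 (SE 0.047, adjusted p = 0.00015) in SCC25 (0.070 for WDR75 with equal library totals, adjusted p = 0.19), while WDR43 fell there with -0.13 (SE 0.047, adjusted p = 0.0214). The call of WDR43 was lost without squamocin replicate 1, DMSO replicate 2 or DMSO replicate 3 of SCC25 (adjusted p 0.0693 to 0.0975). In SCC15 these 3 genes changed by 0.16 (adjusted p = 0.157), 0.019 (0.852) and 0.072 (0.518), none past the threshold. UTP15 did rise there without the third squamocin library (0.18, adjusted p = 0.0342). With equal library totals all 3 fell in SCC15 (UTP15 -0.34, WDR75 -0.48 and WDR43 -0.43), where 51.1% of all genes fell.

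Of the other small-subunit processome genes, 5 of 7 fell in SCC25 and 0 rose (38.5% and 38.3% of all genes tested), while in SCC15 3 fell and 3 rose (30.0% and 30.9% of all genes). WDR3, a beta-propeller scaffold of the UtpB complex, measured 953, 1067 and 952 with DMSO and 501, 571 and 444 with squamocin in SCC15, and 1158, 1213 and 1231 and 409, 474 and 441 in SCC25. Every treated library lay far below the controls of its line, and the log2 fold changes were -0.98 (SE 0.12, adjusted p = 0.000372) and -1.44 (SE 0.067, adjusted p = 8.3e-10). UTP20, a long scaffold that acts later in the particle, measured 944, 1044 and 1039.7 with DMSO and 582, 497 and 387 with squamocin in SCC15, and 605, 628 and 672 and 468, 437 and 366 in SCC25. Its log2 fold change of -1.06 (SE 0.15, adjusted p = 0.000833) in SCC15 was the second lowest of the 44 there, and in SCC25 it was -0.59 (SE 0.090, adjusted p = 5.9e-05). NOP14 fell in both lines, with -0.46 (SE 0.085, adjusted p = 0.00276) and -1.16 (SE 0.088, adjusted p = 8.68e-08). NAT10, the RNA acetyltransferase of the nucleolus, fell from 2699.7 ± 41.0 to 1389 ± 67.0 in SCC25 (-0.96 (SE 0.048, adjusted p = 1.78e-09)) and changed by -0.15 (SE 0.084, adjusted p = 0.149) in SCC15.

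The rises in SCC15 among them were RRP9, EMG1 and DDX10. RRP9, a protein of the U3 snoRNA particle, measured 488, 479.9 and 509 with DMSO and 620.2, 693 and 1029 with squamocin in SCC15. Its log2 fold change there was 0.63 (SE 0.18, adjusted p = 0.0185), and 0.41 without the third treated library, which was the highest. With equal library totals it was 0.13 (adjusted p = 0.394), no longer a call. In SCC25 RRP9 measured 256, 286 and 324 and 226, 220.5 and 252, a fall with a log2 fold change of -0.30 (SE 0.10, adjusted p = 0.0181). Both calls of RRP9 were close to the threshold: the SCC15 call was lost without any 1 of the DMSO libraries (adjusted p 0.0501 to 0.0619), and the SCC25 call without squamocin replicate 1, squamocin replicate 2 or DMSO replicate 3 (0.0502 to 0.107). EMG1, a methyltransferase of the small-subunit RNA, rose by 0.92 (SE 0.20, adjusted p = 0.006) in SCC15, or 0.67 without the third library, and changed by 0.020 (SE 0.057, adjusted p = 0.762) in SCC25. Of the exonic length of EMG1, 66.7% is shared with neighbouring genes, mostly LPCAT3 on the other strand, and whether reads were counted by strand is not given in the sources used here. DDX10, a helicase, rose by 0.49 (SE 0.14, adjusted p = 0.0201) in SCC15, where leaving out any 1 of the DMSO libraries ended the call (adjusted p 0.0594 to 0.0696), the value without squamocin replicate 3 was 0.33 and equal library totals gave -0.0087. In SCC25 it changed by -0.026 (SE 0.068, adjusted p = 0.74).

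**Figure D2:**
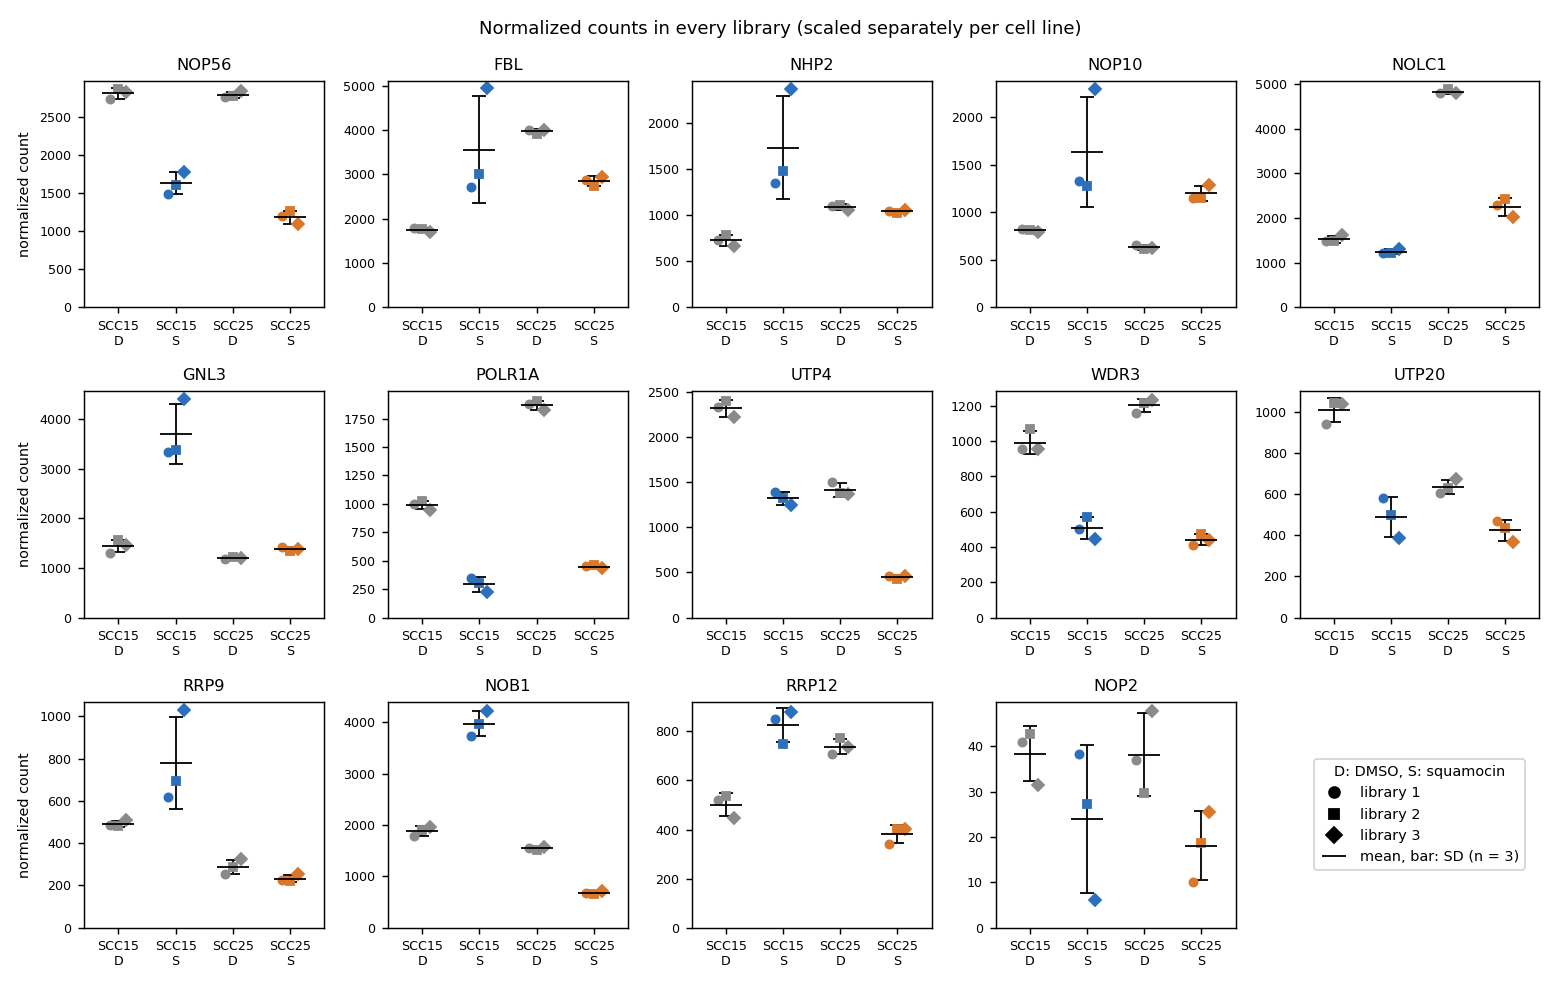
Normalized counts (y axis, from 0) in each library of SCC15 and SCC25 with DMSO (grey) and squamocin (blue or orange) for the 14 genes given by library in the text, with bars for mean and SD of 3 libraries. POLR1A, UTP4, WDR3 and NOP56 lie lower with squamocin in both lines, NOB1 and RRP12 lie higher in SCC15 but lower in SCC25, while the third SCC15 library (diamond) is the highest for FBL, NHP2 and NOP10.

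Late factors of the small subunit held the sharpest contrast between the cell lines. NOB1 (ENSG00000141101, chr16:69741867-69754940), the nuclease that makes the final cut of the small-subunit RNA, measured 1786, 1909 and 1959.8 with DMSO and 3731, 3959.9 and 4225 with squamocin in SCC15. In SCC25 it measured 1554, 1512 and 1575 and 679, 655 and 719. The 3 treated libraries of SCC15 all lay above their controls and those of SCC25 all below, with log2 fold changes of 1.07 (SE 0.087, adjusted p = 7.84e-05) and -1.18 (SE 0.055, adjusted p = 9.01e-10), and of 0.58 and -1.38 with equal library totals. RRP12, which takes part in nuclear export of the subunits, measured 521, 534 and 448 with DMSO and 849.7, 748 and 877 with squamocin in SCC15. In SCC25 it measured 707, 771 and 735 and 339, 402 and 403. It rose by 0.72 (SE 0.11, adjusted p = 0.00114) in SCC15 (0.22 with equal library totals, where the adjusted p was 0.113) and fell in SCC25 with -0.95 (SE 0.080, adjusted p = 2.31e-07). BYSL (bystin) and TSR1 fell in SCC25, with -1.04 (SE 0.12, adjusted p = 4.94e-06) and -1.10 (SE 0.060, adjusted p = 3.94e-09), and changed in SCC15 by -0.43 (adjusted p = 0.136) and 0.093 (0.457). The SCC15 value of BYSL rests on the third squamocin library, which held 423 normalized counts against 225 and 241 in the others, and without it BYSL fell with -0.72 (adjusted p = 2.84e-07) while TSR1 rose by 0.19 (0.00365). LTV1 and PNO1 rose in SCC25, by 0.45 (SE 0.089, adjusted p = 0.000492) and 0.21 (SE 0.069, adjusted p = 0.0128) (0.0059 for PNO1 with equal library totals, adjusted p = 0.941), and changed by -0.033 (0.858) and 0.18 (0.293) in SCC15.

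All 9 large-subunit assembly genes fell in SCC25, where 38.5% of all genes tested fell. PES1, BOP1 and WDR12, which form the PeBoW complex needed to cut the precursor of the large-subunit RNA, fell there with log2 fold changes of -1.0 (SE 0.056, adjusted p = 4.93e-09), -0.79 (SE 0.052, adjusted p = 2.47e-08) and -0.40 (SE 0.060, adjusted p = 4.82e-05). In SCC15 WDR12 fell with -0.62 (SE 0.17, adjusted p = 0.0154), while PES1 changed by 0.40 (SE 0.15, adjusted p = 0.0545) and BOP1 by 0.085 (SE 0.15, adjusted p = 0.645). With equal library totals these values were -1.12 for WDR12, -0.10 for PES1 and -0.41 for BOP1. Without the third squamocin library PES1 rose in SCC15 (0.22, adjusted p = 0.000587), and the call of WDR12 was lost without squamocin replicate 2 or DMSO replicate 2 (0.0507 and 0.0637). RRP1B, a nucleolar protein of the large-subunit precursor, fell with -0.92 (SE 0.086, adjusted p = 0.000134) in SCC15 and -0.47 (SE 0.056, adjusted p = 6.82e-06) in SCC25. RRS1, which places the smallest ribosomal RNA in the large subunit, fell with -0.62 (SE 0.23, adjusted p = 0.0454) and -0.51 (SE 0.087, adjusted p = 0.000174). The SCC15 call of RRS1 was lost when any library other than squamocin replicate 3 was left out (adjusted p 0.0694 to 0.146), with a log2 fold change of -0.40 without squamocin replicate 2. NOP16 fell in SCC25 with -1.08 (SE 0.10, adjusted p = 6.59e-07) and the helicase DDX18 with -0.21 (SE 0.059, adjusted p = 0.00588), or -0.14 without squamocin replicate 3 of that line. In SCC15 they changed by -0.24 (adjusted p = 0.29) and 0.12 (0.221), and NOP16 fell without squamocin replicate 3 (-0.43, adjusted p = 0.00133).

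NOP2 and PPAN are the least certain of the large-subunit genes. NOP2, an RNA methyltransferase, had the log2 fold change farthest from 0 of this group in both lines but also the lowest level of the 44, with 40.9, 42.7 and 31.4 normalized counts with DMSO and 38.3, 27.4 and 6.22 with squamocin in SCC15. In SCC25 it measured 37.1, 29.7 and 47.8 and 10.2, 18.7 and 25.5. These rest on as few as 5 reads in an SCC15 library and 8 in an SCC25 library, and the log2 fold changes were -0.96 (SE 0.59, adjusted p = 0.192) with overlap in SCC15 and -1.10 (SE 0.34, adjusted p = 0.01) in SCC25, where the call was lost without DMSO replicate 3 (adjusted p = 0.0551). Without squamocin replicate 3 the SCC15 value was -0.23. Of its exonic length, 54.4% is shared with an annotated gene on the same strand (ENSG00000285238), and reads in shared exons can be given to either gene or to neither. PPAN, whose exons overlap the read-through gene PPAN-P2RY11 on the same strand over 49.2% of their length, changed by 0.15 (SE 0.17, adjusted p = 0.472) in SCC15 and fell in SCC25 with -0.56 (SE 0.18, adjusted p = 0.0121), where the groups overlapped and the call was lost without squamocin replicate 1 or DMSO replicate 2 (0.0535 and 0.0651). Overlaps of 20.4% to 34.7% of the exonic length also touch LTV1 on the same strand, and NHP2, TSR1, HEATR1, NOP14 and NOB1 on the other strand.

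The response of 31 of the 44 genes differed between SCC15 and SCC25 by the limma contrast of the 4 group means, adjusted over the 14454 genes tested in both lines. In 25 (56.8%, against 26.1% of all genes) the change in SCC15 lay above that in SCC25, and in 6 (13.6%, against 26.0%) below it. NOB1 differed most, by 2.25 (SE 0.10, adjusted p = 8.31e-09), followed by RRP12 with 1.67 (1.17e-06), FBL with 1.45 (0.000169), PES1 with 1.41 (2.57e-05) and UBTF with 1.31 (1.69e-07). The 6 below it were GAR1 (-0.69), RRN3 (-0.55), LTV1 (-0.49), RRP1B (-0.45), UTP15 (-0.45) and WDR75 (-0.26). Without the third squamocin library of SCC15 28 lay above (63.6%, against 32.5% of all genes) and 9 below (20.5%, against 33.4%), and with equal library totals 16 lay above (36.4%, against 16.5%) and 9 below (20.5%, against 37.7%). POLR1A, the gene with the largest fall in both lines, did not pass this test (0.28, SE 0.18, adjusted p = 0.215), though it did without that library (0.47, adjusted p = 0.000191).

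Set side by side, 13 genes fell in both lines (29.5%, against 18.6% of all genes tested in both): NOP56, NCL, NOLC1, POLR1A, POLR1B, HEATR1, UTP4, WDR3, UTP20, NOP14, WDR12, RRP1B and RRS1. Another 4 rose in both (9.09%, against 22.1%), namely NOP10, NPM1, GNL3 and DDX21, of which GNL3 in SCC25 and DDX21 in SCC15 turned below 0 with equal library totals, where DDX21 passed the test in neither line. FBL, RRP9, NOB1 and RRP12 rose in SCC15 and fell in SCC25 (9.09%, against 5.44%), although the rises of RRP9 and RRP12 did not pass with equal library totals, and 0 genes did the reverse (0.00%, against 4.66%). Of the remaining 23, 14 fell and 6 rose in SCC25 and did not pass the test in SCC15, and 3 rose in SCC15 and did not pass in SCC25 (NHP2, EMG1 and DDX10). With equal library totals 24 genes fell in both lines and 2 rose in both. By that scaling 51.1% of all genes fell in SCC15 and 47.6% in SCC25, and 14.6% and 30.3% rose. The shares of all genes for the split of the 23, and for both lines with equal totals, were not counted, so these numbers show no excess over other genes. Across the 44 genes the 2 lines' log2 fold changes had a Pearson correlation of 0.553, beside 0.608 across all 14454 genes, where genes are not independent replicates.

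**Figure D3:**
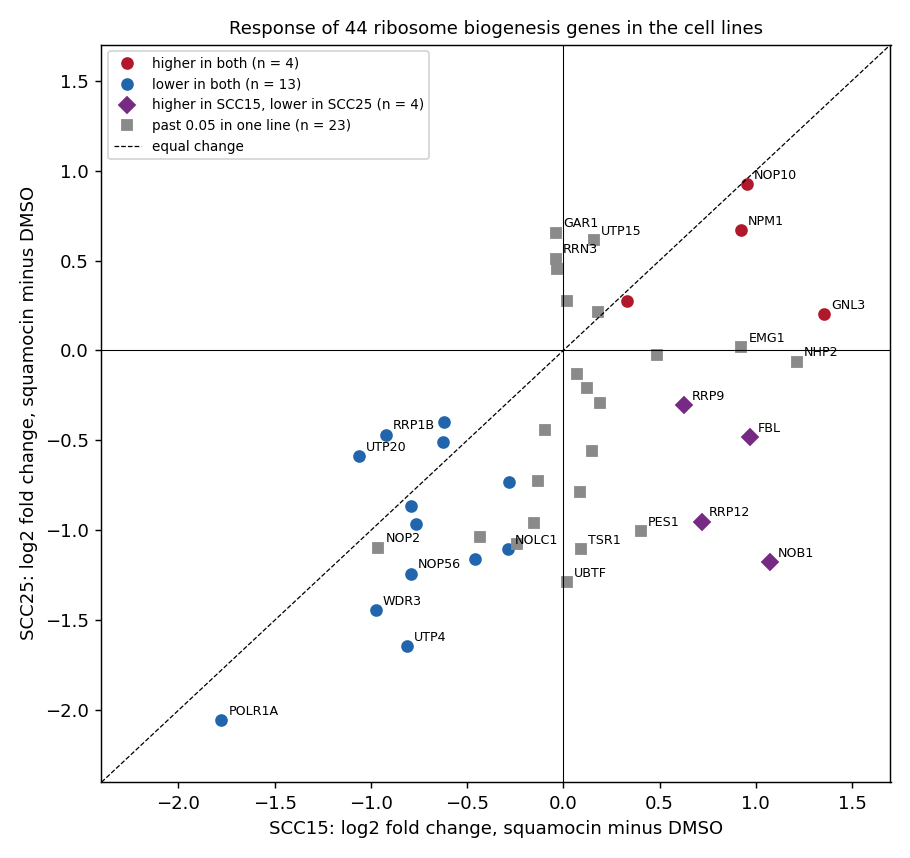
Log2 fold change of squamocin against DMSO in SCC15 (x axis) and SCC25 (y axis) for the 44 genes, marked by call, with a dashed line of equal change. The 13 genes lower in both fill the lower left, the 4 higher in SCC15 and lower in SCC25 (FBL, RRP9, NOB1 and RRP12) lie in the lower right, and no gene was lower in SCC15 and higher in SCC25.

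The share of sequenced reads on the 44 genes was lower in every treated library than in any control of its line. By this measure, which equals scaling to library totals, the median of all genes also lay below 0, at -0.49 in SCC15 and -0.23 in SCC25, with 71.6% and 59.8% of the genes tested below 0. In SCC15 the 44 genes took 0.374%, 0.391% and 0.380% of the reads of the DMSO libraries and 0.318%, 0.316% and 0.329% of those of the squamocin libraries. In SCC25 they took 0.482%, 0.482% and 0.480%, and 0.367%, 0.369% and 0.359%. This comparison uses the library total in place of the authors' size factor, and with 3 libraries a group the summed share was not tested. NCL and NPM1 moved in opposite directions. The share of NCL went from 0.0455% to 0.0474% with DMSO down to 0.0265% to 0.0274% with squamocin in SCC15, and from 0.0618% to 0.0635% down to 0.0319% to 0.0337% in SCC25. That of NPM1 went from 0.0516% to 0.0537% up to 0.0640% to 0.0822% in SCC15, the highest in the third treated library, and from 0.0925% to 0.0956% up to 0.126% to 0.131% in SCC25. The other 42 genes together went from 0.277% to 0.290% down to 0.220% to 0.225% in SCC15 and from 0.323% to 0.326% down to 0.200% to 0.204% in SCC25.

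**Figure D4:**
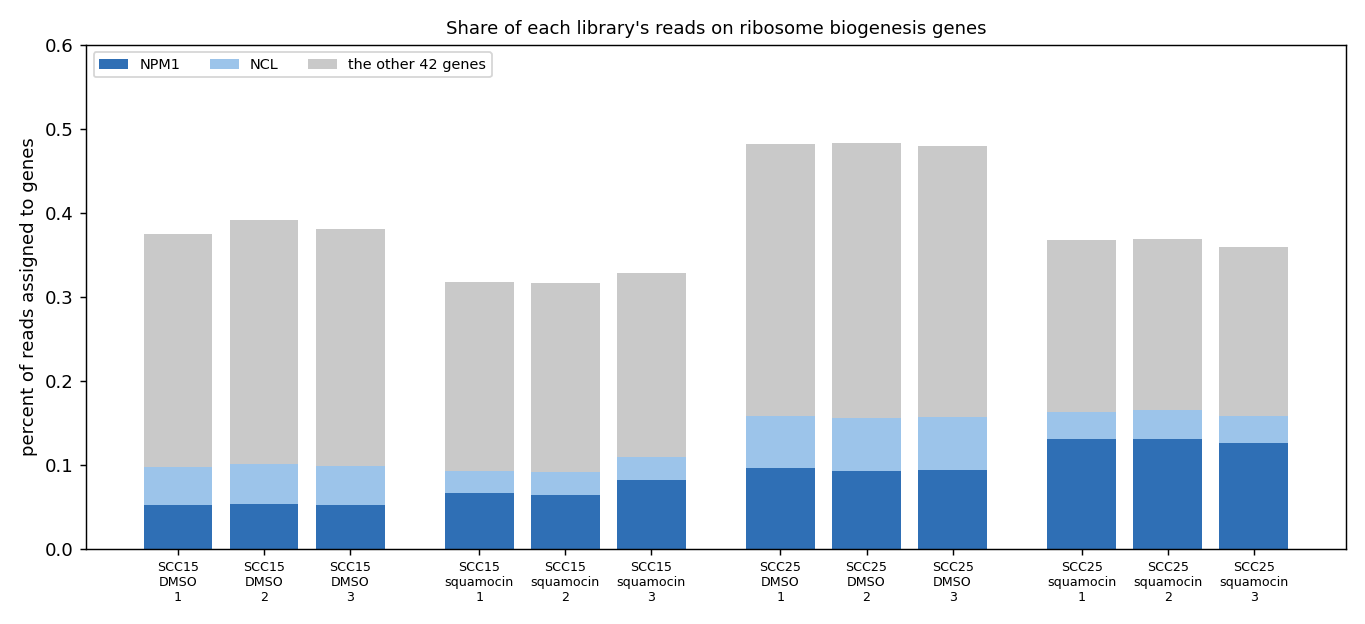
Percent of each library's reads on genes (y axis, from 0) that fell on NPM1 (dark blue), NCL (light blue) and the other 42 genes (grey), by cell line, treatment and replicate. The stacks are lower with squamocin in both lines, where the NCL and grey parts are lower and the NPM1 part is higher (0.0640% to 0.0822% against 0.0516% to 0.0537% in SCC15, 0.126% to 0.131% against 0.0925% to 0.0956% in SCC25).

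Features that the list did not use were also set beside the changes. The genes with an E-box in the promoter had a median log2 fold change of -0.39 in SCC25 (6 rose, 10 fell of 16), and those without it -0.65 (4 rose, 13 fell of 20), while in SCC15 the medians were 0.020 and 0.019. Of all genes tested in SCC25, 38.3% rose and 38.5% fell. The windows printed above were chosen to span the responses, so their directions say nothing about genes with an E-box as a set. Annotated snoRNAs, which are cut from introns, lie inside 8 of the 44 genes (27 snoRNAs), among them NOP56, NCL, GNL3 and DKC1. These host genes had a median of 0.082 in SCC15 and -0.50 in SCC25, beside -0.036 and -0.55 for the other 36. The log2 fold change and the log10 span of the gene had a Pearson correlation of -0.31 in SCC15 and -0.20 in SCC25 across the 44, beside -0.18 and -0.046 across all genes tested, with all points of a line sharing the same libraries.

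The other genes of the pathway, 117 from 4 lists, moved in both directions. In SCC15 39 of 116 tested rose (33.6%, against 30.9% of all genes) and 33 fell (28.4%, against 30.0%), with a median of 0.12, shares near those of all genes. Without the third squamocin library 49 rose (42.2%, against 38.0%) and 47 fell (40.5%, against 37.6%), with a median of 0.022. In SCC25 37 of 117 rose (31.6%, against 38.3%) and 57 fell (48.7%, against 38.5%), with a median of -0.13. Among 11 further RNA polymerase I genes, 5 rose and 3 fell in each line, and the largest rise in both was that of TAF1D, a subunit of the promoter selectivity factor, by 2.09 in SCC15 and 1.82 in SCC25. The largest falls were those of CD3EAP in SCC15 (-1.46) and of POLR1E in SCC25 (-0.83). Of 41 further small-subunit genes, 13 rose and 13 fell in SCC15 (40 tested) and 13 rose and 21 fell in SCC25, with DDX47 the largest rise in both (3.21 and 1.44) and UTP3 in SCC15 (-1.55) and DHX37 in SCC25 (-1.79) the largest falls. The 43 further large-subunit genes had 14 rises and 11 falls in SCC15 and 10 rises and 25 falls in SCC25. Among them NOP53 rose most in SCC15 (1.80) and SBDS in SCC25 (1.42), and MDN1 (-0.93) and DDX54 (-1.27) fell most. Without the third squamocin library FTSJ3 fell most of them in SCC15 (-0.87). In the 22 genes of the nuclear exosome and RNase MRP, 7 rose and 6 fell in SCC15 and 9 rose and 8 fell in SCC25, with POP1 the largest fall in SCC15 (-2.35), EXOSC2 in SCC25 (-1.59), and EXOSC7 (1.14) and C1D (1.29) the largest rises. Without the third squamocin library EXOSC1 had the largest rise of these in SCC15 (0.97). With equal library totals 17 of the 117 rose (14.7% of those tested, against 14.6% of all genes) and 64 fell (55.2%, against 51.1%) in SCC15, and 29 rose (24.8%, against 30.3%) and 74 fell (63.2%, against 47.6%) in SCC25.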

How the data were processed

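RNA-seq of 12 libraries was used: 3 with squamocin and 3 with DMSO in each of SCC15 and SCC25. The authors aligned reads to GRCh38 with HISAT2 2.0.5 and counted them per gene with featureCounts 1.5.0-p3. The deposited signal of a gene in a library is its read count over a size factor set by the authors, with separate scaling of the cell lines, although the SCC25 columns carry the name FPKM. The size factors could be recovered from the values, and 100% of them gave whole reads within 0.001. The deposited tables also hold the authors' own fold changes and p-values from DESeq2, which were not used. The annotation release and strand setting are not given in the sources used here. The labels name the kit NEBNext Ultra and the paper's methods name its later version, which could differ in strand marking.

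Genes whose mean reached 10 normalized counts in a cell line were tested on log2(normalized count + 1) by limma (version 3.58.1, under R 4.3.3), with eBayes and a trend, two-sided, and Benjamini-Hochberg adjustment over all of them. A contrast of the 4 groups gave the difference between the lines for 14454 genes that passed in both. Alternatives were TMM factors (edgeR 4.0.16), equal library totals, pseudocounts of 0.1 and 10, 2 other filters, edgeR and DESeq2 1.42.0 on the recovered reads, a replicate block, each library left out and an absolute log2 fold change above 1. The scripts were tested on simulated data. Promoters came from RefSeq (GRCh38.p14) and exon overlaps from GENCODE. All 44 genes are named, and values of every library are given for the gene with the largest absolute change of each role in each line and for genes that moved in opposite directions. The genes and lists were chosen with earlier results of these data known. Names turned into dates (24 in the SCC15 table, 21 in that of SCC25) touched no gene of the lists.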

Additional observations from a re-analysis of the deposited data

Results flagged for a closer look

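The response to squamocin differed between SCC15 and SCC25 for 31 of the 44 genes, by the limma contrast with adjustment over all genes tested in both lines. The SCC15 response lay above that of SCC25 for 25 (56.8%, against 26.1% of all genes) and below it for 6 (13.6%, against 26.0%). Values are the log2 fold change in SCC15 minus that in SCC25. Among the snoRNA particle proteins, it was 1.45 for FBL, 1.27 for NHP2, 0.48 for DKC1, 0.45 for NOP56, 0.35 for NOP58 and -0.69 for GAR1. For the nucleolar organisers and RNA polymerase I factors, it was 1.31 for UBTF, 1.15 for GNL3, 0.82 for NOLC1, 0.59 for TCOF1, 0.45 for NCL and -0.55 for RRN3. For the small-subunit processome, it was 0.93 for RRP9, 0.90 for EMG1, 0.83 for UTP4, 0.81 for NAT10, 0.70 for NOP14, 0.51 for DDX10, 0.47 for WDR3, -0.26 for WDR75 and -0.45 for UTP15. Late small-subunit factors gave 2.25 for NOB1, 1.67 for RRP12, 1.20 for TSR1 and -0.49 for LTV1. Large-subunit factors gave 1.41 for PES1, 0.87 for BOP1, 0.84 for NOP16, 0.71 for PPAN, 0.34 for DDX18 and -0.45 for RRP1B. Of these, the call for PPAN was lost when any 1 of 8 libraries was left out (adjusted p 0.0544 to 0.106), that for LTV1 with any 1 of 5 (0.0551 to 0.0819), that for WDR75 with any 1 of 4 (0.0561 to 0.0666) and that for NOP58 without DMSO replicate 1 or 3 of SCC15 (0.0507 and 0.0578). With equal library totals, NOP56, NOP58, DKC1, NCL, TCOF1, WDR3, DDX10, PPAN and DDX18 no longer passed this test (adjusted p 0.0964 to 0.729), and PPAN did not with TMM factors (0.0559) nor PPAN and WDR75 without a filter on low values (0.0589 and 0.0584).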

How the results depend on the processing

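The counts in SCC25, 31 falls and 10 rises, were the same or within 1.5 times under every alternative except equal library totals (6 rises) and a log2 fold change above 1 (13 falls, 0 rises). In SCC15, equal library totals gave 7 rises and 30 falls and a median of -0.50, and a log2 fold change above 1 gave 3 rises and 2 falls, while leaving out 1 library gave 8 to 14 rises, 9 to 15 falls and a median of -0.053 to 0.031. The SCC25 median was -0.74 with equal library totals, -0.50 with a pseudocount of 10 and -0.58 to -0.48 with 1 library left out, which left 28 to 31 falls and 10 rises. The responses that were higher in SCC15 than in SCC25 numbered 16 with equal library totals and 23 to 28 with 1 library left out, and those that were lower 4 to 9. A filter of at least 10 in every library left NOP2 out of SCC15. With the replicate number as a block, 12 genes rose and 11 fell in SCC15, 10 rose and 31 fell in SCC25, and 24 responses were above and 4 below. Deviations of samples with the same number had correlations from -0.051 to 0.0078, and those with different numbers from -0.040 to 0.049. With 3 libraries a group this check cannot tell whether the numbers pair the libraries. Depth limits NOP2 alone among the 44, at 5 to 8 reads in its lowest libraries.

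Directions that turned with equal library totals were, in SCC15, those of DKC1 (-0.31), DDX21 (-0.16), UBTF (-0.48), UTP15 (-0.34), WDR43 (-0.43), WDR75 (-0.48), DDX10 (-0.0087), PNO1 (-0.31), TSR1 (-0.41), PES1 (-0.096), BOP1 (-0.41), PPAN (-0.34) and DDX18 (-0.37), and in SCC25 those of GNL3 (-0.0065) and EMG1 (-0.19). So did the difference between the lines for NOP10 (-0.26), NPM1 (-0.038), DDX21 (-0.23), POLR1A (-0.011), POLR1B (-0.087), HEATR1 (-0.22), WDR43 (-0.085) and NOP2 (-0.13). TMM factors turned UBTF (-0.024) and WDR75 (-0.025) in SCC15 and the difference of NOP10 (-0.0082). DDX21 and DDX10 in SCC15 and GNL3 in SCC25 were the ones past the threshold by the authors' scaling, and equal totals moved the change of the median gene by -0.51 in SCC15 and -0.21 in SCC25, where TMM factors moved it by -0.044 and -0.0059. With 1 library left out, directions turned for genes that did not pass the test: in SCC15 GAR1 (-0.16 to 0.043), UBTF (-0.015 to 0.055), RRN3 (-0.091 to 0.010), TCOF1 (-0.22 to 0.032), WDR75 (-0.017 to 0.039), LTV1 (-0.15 to 0.077) and BOP1 (-0.094 to 0.19), and in SCC25 EMG1 (-0.017 to 0.049) and DDX10 (-0.074 to 0.0024). The same held for differences that did not pass with all libraries, those of NOP10 (-0.24 to 0.18), DDX21 (-0.0062 to 0.13), HEATR1 (-0.083 to 0.32), PNO1 (-0.17 to 0.060), RRS1 (-0.33 to 0.11) and NOP2 (-0.35 to 0.87). Without squamocin replicate 3 of SCC15, NOP10 passed the limma contrast below 0 (-0.24, adjusted p = 0.0183) and HEATR1 above 0 (0.32, adjusted p = 0.00221).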
